A study of Mus musculus with 9 samples.

Results

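Hepatic expression of the organic ion carriers of the Slc22a family, the organic anion transporting polypeptides of the Slco family and the monocarboxylate carriers of the Slc16a family was examined in mice fed diets that differed in protein and fat. The genes were taken by symbol, namely every gene of the 3 families with a value of its own on the array, leaving out Slc16a10. They numbered 50 of the 19938 genes tested, of which 23 were Slc22a, 15 Slco and 12 Slc16a genes. Slco6b1 is annotated as a long non-coding RNA and Slc22a13b as a transcribed pseudogene, and both are counted among the 50 carriers.

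All mice were male C57BL/6J mice without genetic modification, and all were fed the low fat-normal protein diet (LF-NP, with 10% of the energy as fat and 15% as protein) during a run-in period. A reference group was killed when the run-in ended, at week 0 and an age of 12 weeks. LF-NP was then compared, after 1 week (age 13 weeks) and 12 weeks, with 3 diets, of which LF-HP raised protein to 50% of energy, HF-NP raised fat to 35%, and HF-HP raised both. The labels give an age of 22 weeks for the pools of 12 weeks, whereas 12 weeks of diet from an age of 12 weeks would give 24. Each of these 9 groups was represented by 1 pool of liver RNA from 5 mice on 1 Affymetrix Mouse Gene 1.0 ST array, so HP and NP, and likewise HF and LF, were each represented by 4 pools. A higher share of protein or fat took the place of other energy, which made up 75% in LF-NP, 50% in HF-NP, 40% in LF-HP and 15% in HF-HP. Mice were habituated to a fixed meal and killed a set time after it, hence all values are postprandial. Diet duration and age changed together and cannot be told apart. As pooling averages the animals, the spread between single mice was not measured, and p-values refer to the spread between pools.

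The 3 families move small charged molecules across cell membranes. Slc22a proteins carry organic cations, organic anions and carnitine, Slco proteins take up bile acids, steroid and thyroid hormone conjugates and many drugs on the blood side of the hepatocyte, and the best known Slc16a proteins exchange lactate, pyruvate and ketone bodies together with protons. In liver these carriers set which solutes of portal blood enter the hepatocyte and which metabolites leave it, while several other members of the families are known mainly from kidney, brain or testis.

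Regulatory sequence could be set beside the expression values for the Slco1 genes, which lie near each other on chromosome 6. Slco1a1 and Slco1a4 are shown because they are neighbours with protein differences of opposite sign, and Slco1b2 because it is the liver uptake carrier of the same cluster. The lines give the 250 bases before the start that the RefSeq promoter table (build GRCm38.p6) uses for each gene, read 5′ to 3′ on the strand of the gene. The gene spans of RefSeq on the same build begin further upstream for Slco1b2 and Slco1a4, so that the last 66 and 64 of these bases lie inside the annotated gene, compared to 0 for Slco1a1. Their positions are chr6:141629268-141629517 on the plus strand for Slco1b2, chr6:141856221-141856470 on the minus strand for Slco1a4 and chr6:141946963-141947212 on the minus strand for Slco1a1. Capitals mark matches to the motifs searched.
Slco1b2: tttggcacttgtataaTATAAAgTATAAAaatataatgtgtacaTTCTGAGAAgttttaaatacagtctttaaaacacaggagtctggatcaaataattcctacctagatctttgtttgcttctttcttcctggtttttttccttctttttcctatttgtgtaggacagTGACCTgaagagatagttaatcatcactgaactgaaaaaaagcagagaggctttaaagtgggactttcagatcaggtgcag
Slco1a4: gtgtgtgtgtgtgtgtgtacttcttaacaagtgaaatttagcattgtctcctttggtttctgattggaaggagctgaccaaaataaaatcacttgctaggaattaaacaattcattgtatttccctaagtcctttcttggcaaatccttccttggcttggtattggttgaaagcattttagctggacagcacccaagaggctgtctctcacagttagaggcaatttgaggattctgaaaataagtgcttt
Slco1a1: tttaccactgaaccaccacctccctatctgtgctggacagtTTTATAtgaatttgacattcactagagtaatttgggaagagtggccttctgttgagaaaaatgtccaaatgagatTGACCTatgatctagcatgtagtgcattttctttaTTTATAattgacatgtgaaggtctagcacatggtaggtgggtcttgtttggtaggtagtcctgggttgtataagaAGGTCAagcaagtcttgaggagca

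The motifs, searched on both strands, were the TATA box TATAAA (present in 12.4% of the 32851 promoter windows of the table), the nuclear receptor core site AGGTCA (14.02%), the HNF4-type site CAAAGTCCA (0.384%), the HNF1 consensus site (0.116%) and the STAT5-type site TTCNNNGAA (7.02%). Slco1b2 held 2 matches to TATAAA, 1 to AGGTCA and 1 to TTCNNNGAA. Slco1a1 held 2 matches to TATAAA and 2 to AGGTCA, and Slco1a4 held none of the 5 motifs. No matches overlapped each other. A match is a description of the letters and not evidence of binding. The table held 41 of the 50 genes, and Slc16a5, Slc22a7, Slc16a7 and Slc16a13 were not among them.

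Expression is given as the signal on the log2 scale after robust multiarray analysis (RMA), so a difference of 1 is a doubling of signal. Signals of different probe sets are not comparable as amounts, and no gene was ranked against another by level. As a measure of background, the 95th percentile of 1027 olfactory receptor genes, which liver is not known to use, lay at 4.81. The mean signal of 28 members exceeded it, while 22 did not, among them Slc22a2, Slc22a6 and Slc22a8, known as kidney carriers, Slco1c1, the thyroxine carrier of the brain, and Slco6b1, Slco6c1 and Slco6d1, known from testis. Across the 9 pools, the signal varied by a median of 0.53 in the 28 and of 0.32 in the 22, compared to 0.38 over all genes. Only 3 members, Slc16a5, Slc22a7 and Slco1a4, varied by more than 1 (6.0% of members compared to 2.52% of all genes), and 29 varied by less than 0.5.

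HP feeding was compared with NP feeding over the 8 diet pools with limma, with fat and week as further terms and p-values adjusted over all genes. One of the 50 carriers passed at an adjusted p of 0.05, namely Slc16a5, which was higher in HP-fed mice (background over all genes 0.441%). At an unadjusted p of 0.05, 12 of 50 carriers differed, 7 of them higher (background 4.59%) and 5 lower (5.66%), against a background of 10.3% in either direction. These were 6 of the 23 Slc22a, 3 of the 15 Slco and 3 of the 12 Slc16a genes. The median difference was 0.01 over the members and 0.00 over all genes, with 25 members positive and 25 negative. By family, 16 of 23 Slc22a genes had a positive difference, as did 4 of 15 Slco and 5 of 12 Slc16a genes. Over all genes, 9581 of 19938 differences were positive. The positive Slc22a genes included Slc22a6, Slc22a8 and Slc22a26, whose signals lay under the olfactory receptor level, and no family was tested as a set.

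**Figure D1:**
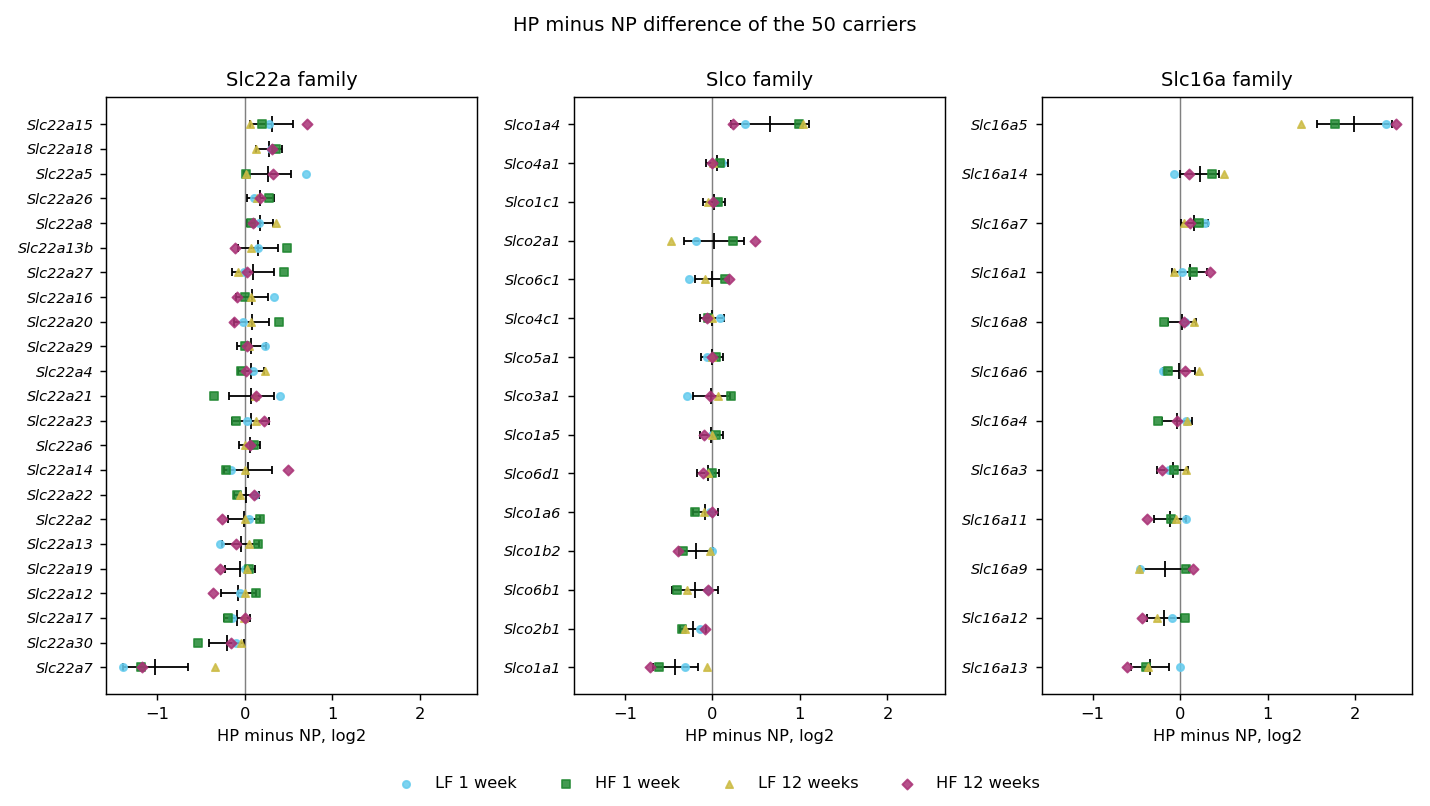
HP minus NP difference (log2, x axis) of each of the 50 carriers, in 1 panel per family. Black ticks are limma estimates with their 95% confidence intervals. Coloured points are the 4 matched HP minus NP differences, on LF and HF diets after 1 and 12 weeks. By the limma estimates, Slc16a5 lies at 1.99 and Slc22a7 at -1.02, and 25 members lie on either side of 0.

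Slc16a5 encodes MCT6, a member of the monocarboxylate carrier family known for transport of drugs such as bumetanide. Its signal was 7.40 in the reference pool, 6.91 and 6.67 in the LF-NP pools of 1 and 12 weeks and 7.32 and 6.67 in the HF-NP pools. In the HP pools it was 9.26 (LF-HP) and 9.09 (HF-HP) after 1 week, and 8.05 and 9.13 after 12 weeks. Every HP pool thus exceeded every NP pool and the reference pool, with LF-HP after 12 weeks the lowest of the HP pools. Signal averaged 8.88 ± 0.56 (SD, n = 4 pools) under HP and 6.89 ± 0.31 (n = 4) under NP feeding. Slc16a5 rose by 1.99 (SE 0.18, 95% confidence interval 1.56 to 2.42), a ratio of 3.97 with an interval of 2.95 to 5.35 (limma, adjusted p = 0.0137). Between matched pools of the same fat level and week, the rise was 2.35 (LF) and 1.77 (HF) after 1 week, and 1.38 (LF) and 2.46 (HF) after 12 weeks. Neither the interaction of protein with fat (0.25, 95% interval -0.65 to 1.16, limma adjusted p = 0.875) nor that with week (-0.14, interval -1.07 to 0.79, limma adjusted p = 1.00) passed the test, and both intervals are wide. Since bulk liver was measured, more signal per cell and a larger share of cells with the transcript cannot be told apart. The call was lost without any 1 of 6 of the 8 pools (LF-NP, LF-HP or HF-NP of 1 week, LF-NP, HF-NP or HF-HP of 12 weeks), where limma adjusted p lay between 0.0523 and 0.0790 and the difference between 1.82 and 2.09.

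Among the carriers of organic anions, Slc22a7 (OAT2, a carrier on the blood side of the hepatocyte that moves small organic anions and nucleotides) had the lowest protein difference of all members. Its signal was 8.79 in the reference pool, 9.16 and 8.62 in LF-NP and 9.10 and 8.92 in HF-NP after 1 and 12 weeks. In the HP pools it was 7.77 and 8.28 (LF-HP) and 7.92 and 7.74 (HF-HP) after 1 and 12 weeks. All HP pools were below all NP pools and the reference pool, with LF-HP after 12 weeks again nearest to the NP pools. The difference was -1.02 (SE 0.16, 95% interval -1.39 to -0.65), or a ratio of 2.03 between NP and HP, and just missed the threshold (limma, adjusted p = 0.0515). Its limma adjusted p was under 0.05 in 8 of 21 alternative analyses, and lay between 0.0170 and 1.0 over the 21. A further 1 of the 21 kept the fit and raised the threshold to 0.1, which Slc22a7 passed. Matched differences were -1.39 (LF) and -1.18 (HF) after 1 week, and -0.34 (LF) and -1.18 (HF) after 12 weeks. The interaction with week was 0.53 (95% interval -0.12 to 1.17, limma adjusted p = 1.00).

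Apart from Slc16a5 and Slc22a7, 3 further members had HP and NP pools that did not overlap, which made 5 of 50 (background 4.79%). Slc22a18, an imprinted gene for a carrier related to organic cation transporters, had signals of 10.53, 10.67, 10.33 and 10.42 in the HP pools (LF-HP and HF-HP of 1 week, then of 12 weeks) compared to 10.23, 10.31, 10.21 and 10.11 in the matched NP pools and 10.18 in the reference pool. Its difference of 0.28 (SE 0.06) did not pass (limma, adjusted p = 0.162). Slc22a26, a rodent gene of an organic anion carrier cluster on the same chromosome as Slc22a8, had signals of 4.45 to 4.57 under HP and 4.17 to 4.40 under NP feeding, below the olfactory receptor level (0.18, limma adjusted p = 0.406). Slco2b1, an uptake carrier of steroid sulphates, was between 9.32 and 9.50 under HP and between 9.53 and 9.67 under NP feeding, with a difference of -0.22 (SE 0.06, limma adjusted p = 0.269).

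Carnitine uptake by hepatocytes depends on Slc22a5 (OCTN2), and the reference pool had a Slc22a5 signal of 8.01. It was 7.76 and 8.22 in LF-NP and HF-NP and 8.46 and 8.24 in LF-HP and HF-HP after 1 week. After 12 weeks the values were 7.78 and 7.66 in the NP and 7.80 and 7.98 in the HP pools. All 4 matched differences were positive, from 0.01 to 0.71, but the groups overlapped and the difference of 0.26 (SE 0.12, limma adjusted p = 0.502) did not pass. It was 0.17 without LF-HP and 0.14 without LF-NP of 1 week, the pair with the difference of 0.71. Slc22a21 and Slc22a4, carnitine and organic cation carriers next to Slc22a5 on the chromosome, had differences of 0.07 and 0.08. Same sign in all 4 matched comparisons was seen in 16 of 50 members (background 14.1%).

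Of the remaining Slc22a genes, Slc22a15, whose protein is thought to carry zwitterions, had the highest positive difference of the family. Its signal was 6.67, 6.73, 6.54 and 6.83 in the HP pools (LF-HP and HF-HP of 1 week, then of 12 weeks), 6.38, 6.54, 6.48 and 6.12 in the matched NP pools and 6.45 in the reference pool. The lowest HP pool (LF-HP, 12 weeks) reached only the level of the highest NP pool, and the difference was 0.31 (SE 0.10, limma adjusted p = 0.340). Slc22a8 (OAT3) stayed between 4.30 and 4.77 in all 9 pools, within the background of the array, with a protein difference of 0.18 (limma adjusted p = 0.407). Slc22a30, a rodent organic anion carrier, lay between 10.14 and 10.49 under HP and between 10.49 and 10.67 under NP feeding (-0.21, limma adjusted p = 0.470). The genes Slc22a26 to Slc22a30 are closely related copies, so their probes may cross-hybridise, and their values are uncertain. A probe set assigned to Slc22a28, Slc22a29 and Slc22a30 together was not tested and lay between 9.91 and 10.50 in the 9 pools.

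Within the Slco family, Slco1a1 (Oatp1a1), a male-predominant uptake carrier of bile acids and steroid conjugates, had the lowest protein difference. Its signal was 10.76, 10.70, 11.27 and 10.86 in the HP pools (LF-HP and HF-HP of 1 week, then of 12 weeks) and 11.07, 11.31, 11.34 and 11.57 in the matched NP pools, with 11.41 in the reference pool. Each HP pool was lower than its matched NP pool, but LF-HP after 12 weeks overlapped with the NP range. The difference was -0.42 (SE 0.11, limma adjusted p = 0.226).

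Slco1a4 (Oatp1a4), which takes up bile acids and digoxin, is the neighbour of Slco1a1 and had a difference of the other sign. Signal was 8.56, 7.98, 8.47 and 7.87 in the HP pools in the same order, 8.19, 6.98, 7.44 and 7.64 in the matched NP pools and 7.89 in the reference pool. All 4 matched differences were positive, between 0.23 and 1.03, although LF-NP after 1 week exceeded both HF-HP pools. The HP minus NP difference was 0.66 (SE 0.19, limma adjusted p = 0.266). Probes of the Slco1a genes may cross-hybridise as their sequences are alike, and the values of both genes are uncertain in this respect.

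Slco1b2 (Oatp1b2), the liver carrier for unconjugated bile acids and bilirubin, had a signal of 10.96 in the reference pool and 10.95 in LF-NP, LF-HP and HF-NP of 1 week. After 12 weeks it was 11.03, 11.001 and 11.14 in these diets, and the lowest values were those of HF-HP, 10.61 and 10.75 after 1 and 12 weeks. Its protein difference was -0.19 (SE 0.08, limma adjusted p = 0.506). Of the 15 Slco genes, 0 passed the adjusted test, while Slco1a1, Slco2b1 and Slco1a4 were the 3 at an unadjusted p of 0.05.

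The lactate and pyruvate carriers of the Slc16a family had small differences. Slc16a1 (MCT1), which carries lactate, pyruvate and ketone bodies, had signals from 8.92 to 9.42 under HP and from 8.81 to 9.27 under NP feeding, with 9.24 in the reference pool (difference 0.11, SE 0.08, limma adjusted p = 0.757). Slc16a7 (MCT2, a carrier with high affinity for pyruvate) was between 9.93 and 10.26 under HP and between 9.89 and 9.97 under NP feeding, compared to 9.98 at week 0 (0.16, SE 0.07, limma adjusted p = 0.455). Slc16a1 thus overlapped throughout, whereas for Slc16a7 only LF-HP after 12 weeks fell within the NP range. In Slc16a1, 3 of 4 matched differences were positive.

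Slc16a11 and Slc16a13 are adjacent genes for less studied carriers, and Slc16a11 is known from variants linked to type 2 diabetes. Slc16a11 was between 6.47 and 6.83 under HP and between 6.76 and 6.86 under NP feeding, with 6.73 in the reference pool (difference -0.12, SE 0.08, limma adjusted p = 0.714). Slc16a13 had signals of 6.75, 6.75, 6.39 and 6.42 in the HP pools (LF-HP and HF-HP of 1 week, then of 12 weeks), 6.75, 7.15, 6.75 and 7.02 in the matched NP pools and 6.83 in the reference pool. Its difference was -0.34 (SE 0.09, limma adjusted p = 0.243), with 3 of 4 matched differences negative and 1 of 0.00. Such identical values on different arrays occurred in 30 of the 50 members and in 62.2% of all genes, and 18 of the 30 were members not above the olfactory receptor level.

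**Figure D2:**
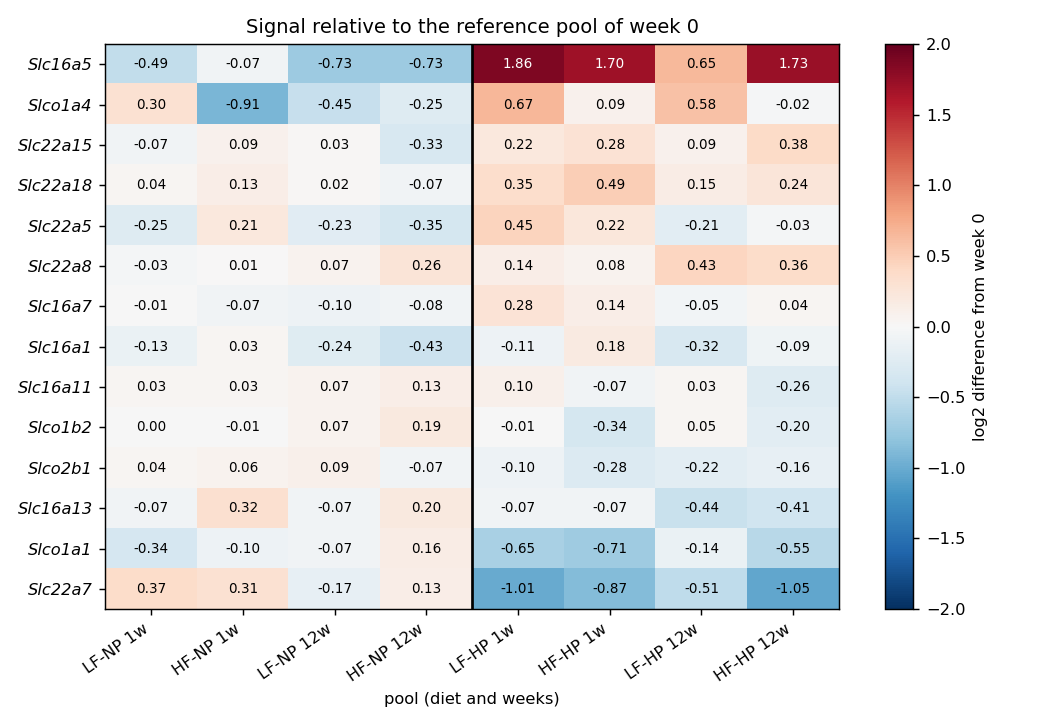
Signal of the 14 carriers given pool by pool, as the log2 difference (colour) of each diet pool (columns, with the HP and NP pools parted by a line) from the reference pool of week 0. Slc16a5 lies between 0.65 and 1.86 above week 0 in the HP pools and between 0.07 and 0.73 below it in the NP pools, and Slc22a7 lies between 0.51 and 1.05 below it in the HP pools.

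The matched comparisons differed in size. After 12 weeks on LF diets, the median absolute HP minus NP difference was 0.07 over the 28 members above the olfactory receptor level, compared to 0.12 over all genes. It was 0.20 in these 28 members on HF diets after 1 week (all genes 0.10), 0.15 on LF diets after 1 week (all genes 0.09) and 0.23 on HF diets after 12 weeks (all genes 0.14). The values for all genes were not filtered by level. Over all 50 members, the median was 0.11 on LF and 0.18 on HF diets after 1 week. After 12 weeks it was 0.07 on LF and 0.12 on HF diets over the 50, in both cases below that of all genes. LF after 12 weeks gave the smallest of the 4 matched differences in 20 of 50 members, including Slc16a5, Slc22a7, Slc22a18, Slc22a15, Slco1a1 and Slc16a7, and in 22.3% of all genes. Each of these comparisons rests on 1 pool per diet, and no test was made.

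HF feeding was compared with LF feeding in the same fit. No member passed, as was the case for all genes (background 0.0%), and 2 of 50 members differed at an unadjusted p of 0.05 (background 3.33%). Slco1a4 was lower under HF feeding by -0.55 (SE 0.19, limma adjusted p = 0.999), with 7.62 ± 0.45 (SD, n = 4) compared to 8.17 ± 0.51 (n = 4) under LF feeding. It was lower in 3 of 4 matched comparisons and most so between the NP pools of 1 week (-1.21). Slc22a16, a carnitine carrier of the testis with signals under the olfactory receptor level, had a difference of 0.21 (limma adjusted p = 0.999). Slc16a5 and Slc22a7 had fat differences of 0.33 (95% interval -0.10 to 0.76) and -0.04 (interval -0.41 to 0.33). The sign was the same in all 4 matched comparisons of fat in 0 of 50 members (background 7.09%), and HF and LF pools overlapped in all 50 (0.707% of all genes did not).

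Between 12 weeks and 1 week, no member passed (background 0.00502%) and 7 of 50 differed at an unadjusted p of 0.05 (background 7.71%), 3 higher (2.42%) and 4 lower (5.3%). Lower after 12 weeks were Slc16a5 (-0.52, SE 0.18), Slc22a5 (-0.36, SE 0.12), Slc16a1 (-0.26, SE 0.08) and Slc22a18 (-0.16, SE 0.06). For Slc22a5, the mean signal was 8.17 ± 0.30 (SD, n = 4) after 1 week and 7.81 ± 0.13 (n = 4) after 12 weeks, and for Slc16a1 it was 9.23 ± 0.14 and 8.97 ± 0.15. Higher were Slco1a1 (0.30, SE 0.11), Slc22a8 (0.23, SE 0.07) and Slc16a14 (0.23, SE 0.10), the last 2 of these with signals under the olfactory receptor level. Without the LF-HP pool of 12 weeks, the week difference was -0.31 for Slc16a5 and 0.19 for Slco1a1. Within diets, that of Slc16a5 was -1.21 in LF-HP, 0.04 in HF-HP, -0.24 in LF-NP and -0.65 in HF-NP. The smallest limma adjusted p of the members was 0.564, for Slc22a8. Of these 7, Slc16a1, Slc22a18, Slc22a8 and Slco1a1 had the same sign in all 4 matched comparisons, which held for 10 of the 50 members (background 14.2%). The pools of 1 and 12 weeks overlapped in all 50 (2.79% of all genes did not).

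The dependence of the protein difference on fat was tested as an interaction. No member passed (background 0.0%), and 5 of 50 had an unadjusted p of 0.05 or less (background 7.02%). Slco1a1 and Slco1b2 were on the list of known liver carriers, itself made with earlier results of these data known. The others were named after their interaction values were seen. Slc16a9, a monocarboxylate carrier family member linked to carnitine efflux, had HP minus NP differences of -0.46 and -0.47 on LF diets and of 0.07 and 0.15 on HF diets after 1 and 12 weeks (interaction 0.58, SE 0.11, limma adjusted p = 0.541). Slc16a9 has 2 probe sets, of which the one with the higher mean was used. Its interaction lay between 0.39 and 0.63 over 15 alternatives, and between 0.52 and 0.63 with single pools left out. Slco2a1, the prostaglandin transporter, had differences of -0.18 and -0.48 on LF and of 0.24 and 0.49 on HF diets (interaction 0.69, SE 0.15, limma adjusted p = 0.582). Its signal was 9.52 and 9.75 in LF-NP, 9.34 and 9.28 in LF-HP, 9.47 and 9.32 in HF-NP and 9.70 and 9.81 in HF-HP after 1 and 12 weeks, so HP and NP pools did not overlap within a fat level but did over both.

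Slco1a1 and Slco1b2 had interactions of -0.47 (SE 0.15) and -0.35 (SE 0.11), both with a limma adjusted p of 0.687. Under HF feeding the protein differences of Slco1a1 were -0.61 and -0.71 after 1 and 12 weeks, compared to -0.31 and -0.06 under LF feeding. For Slco1b2 they were -0.34 and -0.39 under HF feeding and 0.00 and -0.02 under LF feeding. The fifth was Slco6c1 (0.34, limma adjusted p = 0.701), under the olfactory receptor level. For the interaction of protein with week, no member passed (background 0.0%) and 2 of 50, Slc16a12 (-0.33), a creatine carrier, and Slc16a6 (0.30), had an unadjusted p of 0.05 or less (background 2.62%, both named after their values were seen).

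**Figure D3:**
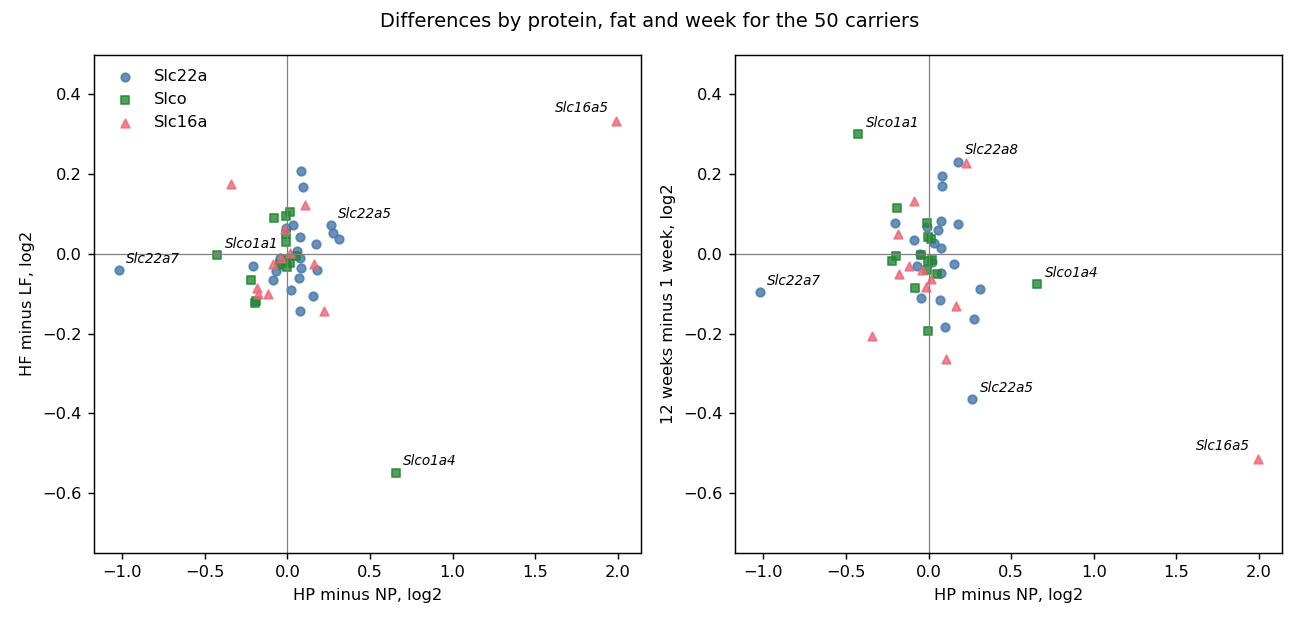
HP minus NP difference (log2, x axis) of the 50 carriers against their HF minus LF difference (left) and their 12 weeks minus 1 week difference (right), where each point is 1 gene and all differences come from the same 8 pools. Slc16a5 lies at 1.99 for protein, 0.33 for fat and -0.52 for week.

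Genes that act with these carriers were described by counts of genes at an unadjusted p of 0.05 for HP minus NP, with a background of 10.3% over all genes. The lists were chosen with earlier results of these data known, and the background was not filtered by level. The counts are therefore descriptive, and no list was tested. Of 13 regulators of hepatic transporters, 0 passed the adjusted test and 8 were lower at an unadjusted p of 0.05 (background for lower 5.66%), with a median of -0.21. They included Bcl6 (-0.79), a repressor tied to male-specific liver expression, Nr0b2 (-0.63), the bile acid-induced repressor SHP, Nr1i3 (-0.39), the xenobiotic receptor CAR, and Nfe2l2 (-0.35), the regulator of antioxidant genes. Of 6 genes of thyroid hormone handling all had negative differences (median -0.30), as did 10357 of all 19938 genes. Among these 6, 1 passed (background 0.441%), namely Dio1, the deiodinase that activates thyroxine (-0.78, SE 0.11, limma adjusted p = 0.0455), while 3 had an unadjusted p of 0.05 or less. Thrb (-0.27) is in both lists and was counted among the 8 regulators and among these 3. In the other lists, such genes numbered 1 of 6 accessory proteins (Pdzk1, a scaffold protein, -0.19), 0 of 8 genes of carnitine and ketone body metabolism, 2 of 12 of lactate and pyruvate metabolism (Ldha, -0.22, and Pcx, -0.20) and 3 of 14 other bile acid and organic ion carriers (Abcg2, -0.25, Abcc6, -0.21, and Abcb4, -0.18). None of these 6 genes passed the adjusted test.

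The arrays and the makeup of the liver samples were compared across pools. Arrays correlated at 0.993 to 0.997 with each other over all genes, and their medians differed by at most 0.064. Of the markers of hepatocytes, 6 of 6 had signals over the olfactory receptor level and 2 of 6 had an unadjusted p of 0.05 or less for HP minus NP (Tat 0.37, Cps1 0.22, both enzymes of amino acid metabolism). So did 1 of 5 markers of sinusoidal endothelium (Lyve1, 0.53), 1 of 6 of Kupffer cells (Clec4f, -0.26), 2 of 5 of lymphocytes (Cd3e, -0.28, and Ptprc, -0.25) and 0 of the markers of cholangiocytes, stellate cells, kidney tubule, adipocytes and pancreas acinus. No marker passed the adjusted test. Markers of the same list differed in sign, with 2 of 6 positive for hepatocytes, 3 of 5 for endothelium, 1 of 6 for Kupffer cells and 2 of 5 for lymphocytes. Opposite in sign to those named were Clec4g (-0.06) and Pecam1 (-0.08) of endothelium, Marco (0.21) of Kupffer cells, and Cd8a (0.14) and Ms4a1 (0.11) of lymphocytes. Only 2 of 5 lymphocyte markers exceeded the olfactory receptor level. The mean signal of the endothelial list was 8.54 to 8.86 in the HP and 8.42 to 8.69 in the NP pools, that of the Kupffer cell list 7.36 to 8.12 and 7.64 to 8.09, and that of the lymphocyte list 4.70 to 4.96 and 4.83 to 5.06, and their part in the carrier differences was not tested.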

How the data were processed

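Liver RNA of 9 pools of 5 mice was hybridised to 1 array each. Per the labels and methods, the authors processed the arrays by RMA (background correction, quantile normalisation, summary per probe set), and the deposited values are on the log2 scale. Scanner files were not used here. The methods describe probe sets regrouped by Entrez Gene, but the deposited rows carry the array's own probe set numbers. Of 35556 probe sets, 21789 had 1 gene symbol in the array annotation, 1621 several and 12146 none. Probe sets with 1 symbol were kept, and the one with the highest mean represented each of 19938 genes. This choice touched 1 of the 50 carriers, Slc16a9. Some genes of the 3 families are not reported here.

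Pools were grouped by the diet and week in their labels. HP minus NP, HF minus LF and 12 weeks minus 1 week were taken from 1 additive fit with limma 3.58.1 in R 4.3.3 over the 8 diet pools, and the interactions from fits with 1 more term. The reference pool stayed out of the fits. The Benjamini-Hochberg adjustment ran over all genes, and the threshold was 0.05. The additive fit has 4 residual degrees of freedom and a prior of 3.52, and its residual also holds any interaction. The code was tested on simulated data. Confidence intervals are at 95%. The number of arrays limits the precision, as no counts exist.

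The members, gene lists and tests were chosen with earlier results of these data known. Values in every pool were given for 14 members, namely those past an adjusted p of 0.05 in any comparison, those with an unadjusted p under 0.01 for protein, fat or week, 11 known liver carriers, and the highest and lowest protein difference in each family. Other genes are named as members of a list or because they were few in a count. Alternatives were array weights, centred arrays, an intensity trend, filters on the level, the mean of probe sets, no covariates, a block for matched pools, subsets by week or fat, leaving out each pool and a threshold of 0.1. Promoters were read from the RefSeq table, tables were made with pandas 2.3.3 and NumPy 2.4.6 in Python 3.11.15, and figures with matplotlib 3.10.9.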

Additional observations from a re-analysis of the deposited data

Results flagged for a closer look

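The LF-HP pool of 12 weeks stood apart from the other HP pools for Slc16a5, with a signal of 8.05 compared to 9.09 in the nearest of the other 3. The gap took up 0.864 of the range of the 4 HP pools. The test for a distant pool was applied to 28 groups of 4 pools, the HP and the NP pools of 14 carriers, and 1 group met it, where chance gives about 1 in 20. Without this pool the HP minus NP difference of Slc16a5 was 2.19 (limma adjusted p = 0.0180), and the cause of the lower signal was not tested.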

How the results depend on the processing

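Compared to 1 carrier past the adjusted test for HP minus NP, 2 (Slc16a5 and Slc22a7) passed with array weights, centred arrays, an intensity trend, the mean of probe sets, no covariates, a threshold of 0.1, and with only genes above the median or above the olfactory receptor level, and 0 passed in the pools of 1 week, of 12 weeks, on LF or on HF diets alone, where fewer pools were fitted. Leaving out single pools gave 0 to 2. Carriers at an unadjusted p of 0.05 numbered 7 in the pools of 1 week, 4 of 12 weeks, 7 on HF and 3 on LF diets, and 9 to 13 with single pools left out, compared to 12. For HF minus LF, the 2 carriers became 1 with either filter on the level, 0 without covariates and 0 to 3 with single pools left out. For week, the 7 became 3 to 8, and for protein by fat the 5 became 4 to 6 with single pools left out. For protein by week, the 2 became 1 with array weights, the olfactory receptor filter or an intensity trend, and 0 to 3 with single pools left out. Among the named carriers, the HP minus NP difference changed sign only for Slc16a1 (-0.0288) and Slc16a11 (0.0117), both in the LF pools alone. Over all genes, 88 passed for HP minus NP, compared to 140 with array weights, 152 with centred arrays, 219 and 167 with the median and olfactory receptor filters, 39 with matched pools as a block, 0 in each subset by week or fat and 1 to 36 without single pools. Without HF-NP of 12 weeks, the HP minus NP difference was 0.19 for Slc22a15, -0.13 for Slco1b2, 0.02 for Slc16a1 and -0.05 for Slc16a11, while Slc16a11 was -0.04 without HF-HP and Slc16a1 0.18 without LF-NP of 12 weeks. The causes of these changes were not tested. With matched pools as a block, Slc16a5 remained past the test (limma adjusted p = 0.0337) and Slc22a7 did not pass (0.0882), where adjusted p over all alternatives ranged from 0.00348 to 1.0 for Slc16a5. The pairing in this block is by fat level and week, as the labels give no replicate numbers that could pair samples. Differences of carriers under the olfactory receptor level are limited by signal over background.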
